A study of Mus musculus with 6 samples.

Results

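Rab, Arl and Arf GTPases are small membrane-trafficking switches, and their mRNAs were followed here through the non-polysomal (NP) and polysomal (P) fractions of mouse oocytes from aged females (AF). The members were the genes whose symbol in the deposited table is Rab, Arl or Arf followed by a number and, where present, a letter, with Arf limited to *Arf1* to *Arf6*. This gave 82 of 25899 genes, of which 57 were Rab, 19 Arl and 6 Arf genes. The rule itself uses no measured value. The study asked how the mRNAs on polysomes differ between oocytes of young and aged females after meiosis has resumed, and the files used here allow P to be set against NP on the aged side. The labels describe 6 libraries, 3 of NP and 3 of P, each from 200 oocytes lysed after nuclear envelope breakdown. The oocytes came from CD1 mice 58 weeks old, while the study's methods name the ICR strain and give the age in months. All 6 libraries share hormone priming of the females, release from a meiotic inhibitor and cycloheximide, which holds ribosomes on the mRNA. NP holds free RNA and RNA on monosomes, and P holds RNA on polysomes. The libraries of young females were not analysed here, so no value below is an effect of age. Every sample pools many oocytes, so fewer oocytes with a transcript and less transcript per oocyte cannot be told apart. The sources do not say whether replicates came from separate animals, so p-values measure the spread between these samples, which may be technical.

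A Rab, Arl or Arf protein binds membranes and recruits effectors while it carries GTP, and leaves or falls silent once the GTP is hydrolysed. Exchange factors (GEFs) load the GTP, and GTPase-activating proteins (GAPs) end the signal. In mouse oocytes, vesicles carrying RAB11A organise the cytoplasmic actin network that moves the spindle, and RAB27A is needed to bring cortical granules to the cortex. Fully grown oocytes do not transcribe, so which stored mRNAs are on polysomes sets what they make.

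Control of stored mRNAs in oocytes acts largely through the end of the 3′UTR, where cytoplasmic polyadenylation elements (CPEs) sit near the polyadenylation signal. The windows shown are 30 bases around that signal for the 3 members that passed the test below (*Arl3*, *Arl2*, *Rab3a*) and for 2 abundant members that did not (*Arf1*, *Rab35*). They were read from GENCODE M21 transcripts on GRCm38, are written 5′ to 3′ with respect to the mRNA, lie in the 3′UTR of the last exon, and carry the polyadenylation signal in capitals.
*Arl3*, chr19:46531118-46531147, minus strand: tatcgtttttcaAATAAAggaattatatta
*Arl2*, chr19:6134388-6134417, minus strand: tccagcagtgagAATAAAgcactcttcacc
*Rab3a*, chr8:70758573-70758602, plus strand: ctacacacagtcAATAAAgcgaatggacct
*Arf1*, chr11:59211416-59211445, minus strand: tatagctgttagAATAAAgtctcttaacta
*Rab35*, chr5:115647699-115647728, plus strand: aaaaatactaaaAATAAAggttcaagctgc
The last 100 bases of each 3′UTR were searched on the mRNA strand for AATAAA or ATTAAA, and for TTTTAT or TTTTAAT as CPEs, with overlapping matches allowed. A polyadenylation signal was found in 84.0% of 81 members with a 3′UTR that long, against 78.9% of all such genes. A CPE was found in 17 members (21%), against 17.9% of all such genes. None of the 5 genes printed above had a CPE in that window, while *Rab11a* had 2. In the comparison of P with NP described below, the 12 tested members with a CPE had a median log2 ratio of -0.51 and those without one -1.16, beside -0.85 and -1.04 over all tested genes, and these differences are given without a test. *Arl3* and *Arl2* have short 3′UTRs of 243 and 284 bases, the third and the fourth shortest of 53 tested members, against a median of 1550 bases. The shorter ones are those of *Rab25* (214 bases) and *Arl10* (234 bases), which did not pass the threshold, and no link with length was tested. The 3′UTR of *Rab3a* has 547 bases.

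Levels are FPKM, reads scaled to exon length and to mapped reads, and can be set side by side between genes. Depth, recovered from the steps between low values, was estimated as 1238228, 18082878 and 12145361 reads in NP replicates 1 to 3 and 163775, 1140392 and 1549608 reads in P, with 59.1% to 65.8% of low values whole within 0.02 reads. Whether 1 step stands for a read or for a pair of reads is not settled, and steps are called reads here. A transcript of 2 kb listed at 0 could therefore hold up to 9.16 FPKM (3 reads) in P replicate 1, 1.32 in P replicate 2 and 0.968 in P replicate 3, and up to 0.083 to 1.21 in NP. These limits take in only the error of counting, as reads were amplified and several can stem from 1 molecule. The FPKM of all genes summed to 597261 to 633110 in NP and 246182 to 393876 in P. All 12 oocyte markers, such as *Gdf9* and *Bmp15*, were above 0 in all 6 libraries. Of 12 granulosa and cumulus cell markers, 6 were at 0 in every library, among them *Amh*, *Foxl2* and *Fshr*. The 12 summed to 11.2 to 131 FPKM in NP and 2.28 to 16.5 in P, with *Cyp19a1* at 7.15, 22.5 and 104 in NP and at 15.4, 0 and 0 in P, and their part in the results was not tested. Of 8 blood markers, 7 were at 0 in all libraries, and *Cd68* was at 0.643 FPKM in NP replicate 1.

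The 82 GTPase genes summed to 2040, 2623 and 2633 FPKM in NP replicates 1 to 3, and to 1231, 971 and 1874 in P. As a share of the library's own total this was 0.396 ± 0.0559% in NP and 0.410 ± 0.0593% in P (SD, n = 3), so the families together took a similar part of both fractions, within the spread between libraries. Above 0 FPKM were 58, 65 and 51 members in the NP libraries and 30, 48 and 33 in the P libraries. In all 6 libraries 21 members were above 0, and 14 were at 0 throughout, among them *Rab13*, *Rab34*, *Rab37*, *Rab3c*, *Arl9* and *Arl11*. A further 15 members were above 0 in NP and listed at 0 in all P libraries, and only *Arl4c* showed the opposite, with 0.118 FPKM in P replicate 3. Over all 25899 genes of the table, 15% were above 0 in NP and at 0 in all P libraries and 0.992% the reverse, so the members are close to that background. The NP libraries listed 9992 to 13514 genes above 0 and the P libraries 6247 to 9557. The 10 members with the highest mean made up 68.3 ± 4.89% of the family total in NP and 71.5 ± 9.71% in P (SD, n = 3). Of the 10 highest in NP, 7 were also among the 10 highest in P: *Arf1*, *Rab35*, *Rab1b*, *Rab38*, *Rab11a*, *Rab3d* and *Rab5c*. *Arl2*, *Arl3* and *Rab3a* were in the NP list only, and *Rab27a*, *Rab21* and *Arf3* in the P list only. Some of these places leaned on replicate 3. Without it the mean of *Rab3a* in NP was 48.1 FPKM, against 104 with it. The P means of *Rab27a* and *Arf3* were 20.1 and 21.8 FPKM, against 204 and 53.0.

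**Figure D1:**
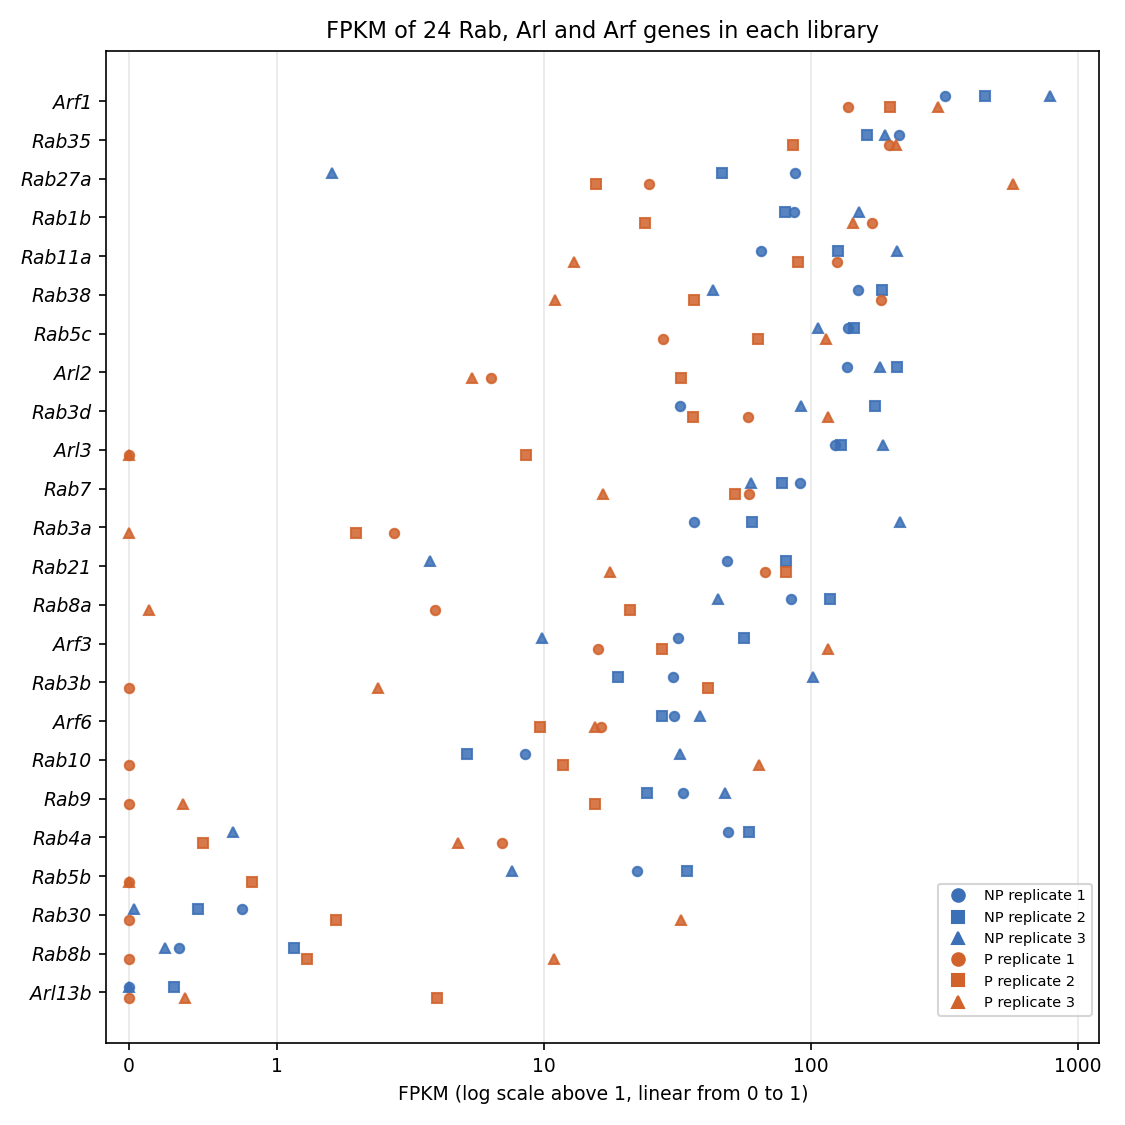
FPKM (horizontal axis, logarithmic above 1) of 24 members in each library, with NP in blue and P in orange, and circles, squares and triangles for replicates 1, 2 and 3. The P points of *Arl3*, *Arl2* and *Rab3a* lie apart from their NP points, and *Rab27a* has 1 P library at 570 FPKM. For *Rab35* and *Rab1b* the ranges of NP and P overlap, with P replicate 2 below the NP points of both genes.

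P and NP were compared with limma on log2(FPKM + 1) for all genes with a mean above 1 FPKM in either fraction, which gives a log2 ratio that understates the change of low genes. Of the 82 members 53 were tested (34 Rab, 14 Arl, 5 Arf) among 10578 genes, and 29 lay below that level. Past an adjusted p of 0.1 were 3 members (5.66%), all lower in P, against 1.82% of all genes in either direction and 1.8% for lower in P. None of the 3 was called without the filter or under the other 3 scalings described below, where limma gave 6 to 8 members an unadjusted p below 0.05. No member was higher in P past the threshold, against 0.0189% of all genes, and limma gave no member an unadjusted p below 0.05 in that direction and 10 in the other. The 10 are 18.9% of the members, against 15.8% of all genes. Every P library was below every NP library for 12 members (22.6%), against 23.2% of all genes, and none had the reverse, against 0.633%. The median log2 ratio was -1.11 over the 53 members and -1.03 over all genes tested, and 43 members (81.1%) were below 0, against 80.1% of all genes. For *Arl3*, *Arl2*, *Rab3a* and *Arf1* the ratio is therefore also given below relative to that median. It moved to -0.43, 0.0027 and -0.50 under median-of-ratios scaling, quantile normalization and scaling to a common FPKM sum, under which 31, 25 and 31 of the 53 members were lower in P. The median of the members thus lay close to that of all genes tested.

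**Figure D2:**
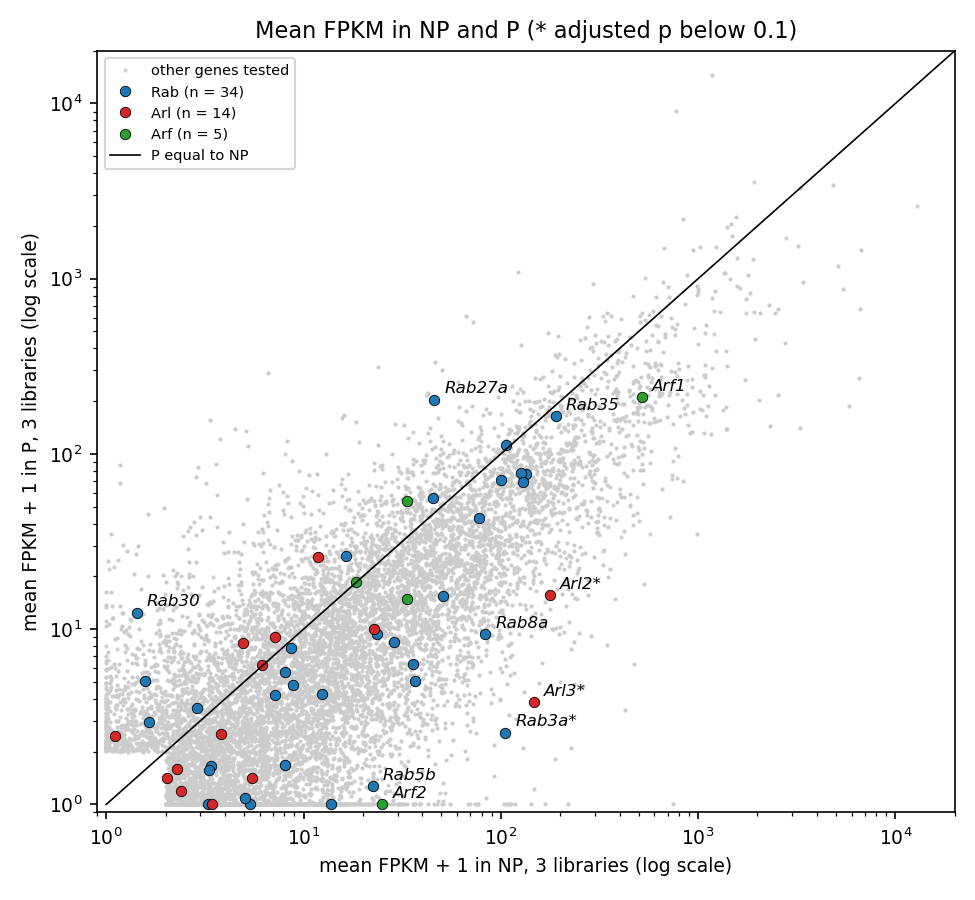
Mean FPKM + 1 in NP (horizontal) and in P (vertical), both on log axes, for the 53 tested members by family and for all other genes tested in grey. Asterisks mark *Arl3*, *Arl2* and *Rab3a*, the members past an adjusted p of 0.1, which have means of 104 to 176 FPKM in NP and 1.57 to 14.7 in P.

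Of the 14 tested Arf-like (Arl) genes, *Arl2* and *Arl3* passed the threshold (14.3%, against 1.82% of all genes). Of the 14, 4 (28.6%) had a log2 ratio below the median of all genes tested. *Arl3* (chromosome 19, 46531109 to 46573085, minus strand, GRCm38) encodes the GTPase that releases lipid-modified cargo from carrier proteins, best known from cilia. It had 123, 129 and 185 FPKM in the NP libraries, whereas P replicate 2 had 8.53 FPKM and P replicates 1 and 3 had none. All NP libraries were far above all P libraries, also above the 7.36 FPKM that 3 reads of *Arl3* would be worth in P replicate 1. The log2 ratio was -6.09 ± 1.14 (SE), or -5.06 relative to the median of all genes (limma, adjusted p = 0.0138).

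*Arl2* (chromosome 19, 6134374 to 6141406, minus strand), a close relative of *Arl3*, releases cargo from the same carriers and takes part in tubulin folding. It had 136, 210.3 and 181 FPKM in NP and 6.33, 32.4 and 5.36 FPKM in P. The groups did not overlap, and *Arl2* was above 0 in all 6 libraries. The log2 ratio was -3.91 ± 0.96 (SE), or -2.88 relative to the median (limma, adjusted p = 0.0592).

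*Rab3a* (chromosome 8, 70754679 to 70758677, plus strand) encodes a GTPase of regulated exocytosis known from synaptic vesicles, and from the acrosome in sperm. Its NP libraries had 36.3, 59.9 and 215 FPKM and its P libraries 2.74, 1.97 and 0, values that amount to 1, 5 and 0 recovered reads. The NP spread was wide, with replicate 3 highest, but the groups did not overlap. The log2 ratio was -5.14 ± 1.16 (SE), or -4.11 relative to the median (limma, adjusted p = 0.0416). *Mpv17l2*, on the other strand at the same place, had means of 0.986 FPKM in NP and 2.45 in P, *Batf2*, on the other strand over *Arl2*, had 0.857 and 0, and no source used here says whether strand was used in counting. None of the 3 genes had a stretch of 200 bases at 95% identity in another GENCODE transcript.

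All 3 calls were lost in limma when any 1 NP library was left out, with adjusted p of 0.257, 0.136 and 0.165 for *Arl3*, 0.352, 0.346 and 0.165 for *Arl2* and 0.289, 0.236 and 0.165 for *Rab3a* without NP replicates 1, 2 and 3, while the log2 ratios stayed at -3.77 or lower. With the filter of all 6 libraries kept, leaving out P replicate 1 or 2 also ended all 3 calls, and leaving out P replicate 3 ended those of *Arl2* and *Rab3a*. Over the 15 alternatives in which the filter was not held fixed, adjusted p ran from 0.00268 to 0.343 for *Arl3*, 0.0218 to 0.600 for *Arl2* and 0.0128 to 0.527 for *Rab3a*, and the ratios kept their sign in all of them.

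The 19 Arl genes summed to 340, 435 and 375 FPKM in NP and to 72.1, 66.6 and 90.8 in P. As a share of all GTPase genes of the same library, which does not change when a library is multiplied by a constant, they made up 15.8 ± 1.36% in NP and 5.85 ± 1.0% in P (SD, n = 3), and the libraries did not overlap. Without *Arl2* and *Arl3* the other 17 Arl genes came to 81.0, 94.9 and 9.42 FPKM in NP and to 65.8, 25.6 and 85.5 in P, which overlap, and made up 2.65 ± 1.99% in NP and 4.18 ± 1.39% in P (SD, n = 3). *Arl2* and *Arl3* were taken out because they were called on these same values, so the comparison without them tests nothing. How often the share of other gene sets fails to overlap was not computed. The median log2 ratio of the 14 tested Arl genes was -0.51, above that of all genes, and turned to 0.026, 0.43 and 0.026 under the 3 other scalings.

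**Figure D3:**
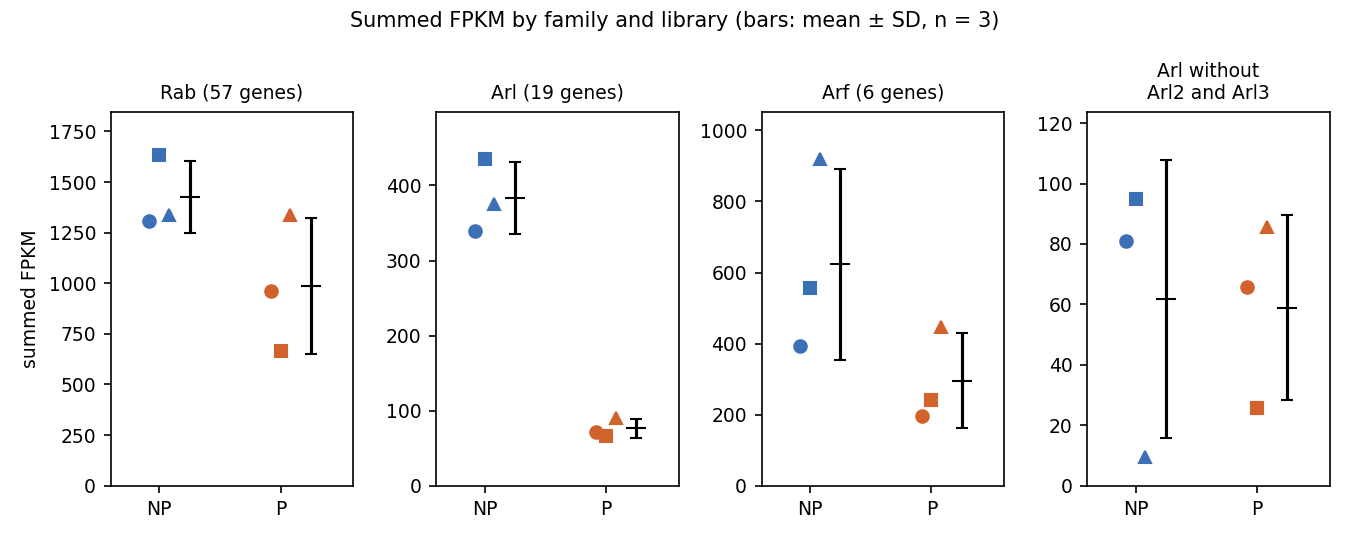
Summed FPKM of the Rab, Arl and Arf genes, and of the Arl genes without *Arl2* and *Arl3*, in each library (circles, squares and triangles for replicates 1, 2 and 3), with the mean ± SD of 3 libraries. The Arl sums are 340 to 435 FPKM in NP and 66.6 to 90.8 in P, and overlap once the 2 genes are taken out.

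Of the other Arl genes, *Arl8b*, a GTPase that moves lysosomes along microtubules, had 15.2, 45.1 and 5.01 FPKM in the NP libraries and 10.4, 11.1 and 5.51 in P. Its paralog *Arl8a* had a mean of 1.4 FPKM in NP and 0.187 in P, and *Arl8b* was the higher of the pair in all 6 libraries. *Arl1*, which recruits golgins to the trans-Golgi, had 16.0, 15.1 and 1.32 FPKM in NP beside 5.15, 3.70 and 65.1 in P, so both fractions hold a library apart from the others. A processed pseudogene matches *Arl1* over 539 bases at 98.9% identity. Of the ciliary genes, *Arl6*, which recruits the BBSome coat, had 6.93, 8.03 and 0.432 FPKM in NP against 11.6, 0.418 and 3.69 in P. *Arl13b*, the exchange factor of *Arl3* in cilia, was hardly present, with 0, 0.304 and 0 FPKM in the NP libraries and 0, 3.96 and 0.381 in P, with a log2 ratio of 0.80 ± 0.79 (SE). *Arl4a*, *Arl4d*, *Arl5a*, *Arl5b* and *Arl5c* all had means under 5 FPKM in both fractions.

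Of the Rab3 group, which acts in exocytosis, *Rab3a* was the only one of 3 tested genes past the threshold, and differences between these genes were not tested. *Rab3d*, a GTPase of secretory granules, had 32.4, 174 and 91.6 FPKM in NP beside 58.2, 36.1 and 115.8 in P, which overlap, with a log2 ratio of -0.36 ± 0.90 (SE) that turned to 0.56 to 0.62 under the other scalings. *Rab3b* had 30.3, 18.9 and 101.5 FPKM in NP against 0, 41.3 and 2.38 in P, with a ratio of -2.93 ± 1.30 (SE; limma, adjusted p = 0.284). *Rab3c* was at 0 throughout. Within each library, the log2 ratio of *Rab3d* over *Rab3a* (1 added to both) was -0.16, 1.52 and -1.22 in NP and 3.98, 3.64 and 6.87 in P. Neither gene was the higher in all NP libraries, while *Rab3d* was above *Rab3a* in all P libraries, and *Rab3d* was the main Rab3 transcript in 2 of 3 P libraries, while *Rab3b* had 41.3 FPKM in P replicate 2.

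The Rab8 group serves transport to the plasma membrane and cilia. None of its 3 tested genes passed the threshold with all 6 libraries and no block for the replicate number. *Rab8a* had 83.8, 117 and 44.8 FPKM in the NP libraries and 3.91, 21 and 0.138 in P, groups that do not overlap, with a log2 ratio of -3.96 ± 1.16 (SE) just outside the threshold (limma, adjusted p = 0.113). Without P replicate 2 it passed (limma, adjusted p = 0.0811), but not when the filter of all 6 libraries was kept. It also passed in limma with all 6 libraries when the replicate number was added as a block. *Rab8b* had 0.341, 1.15 and 0.243 FPKM in NP beside 0, 1.29 and 10.9 in P, with a ratio of 0.97 ± 1.03 (SE), and a processed pseudogene nearly identical to part of it may share its reads. The log2 ratio of *Rab8a* over *Rab8b* within a library was 5.98, 5.78 and 5.20 in NP and 2.30, 3.26 and -3.38 in P. *Rab10*, their relative in GLUT4 and basolateral transport, had 8.51, 5.13 and 32.4 FPKM in NP against 0, 11.7 and 64.0 in P, and its log2 ratio of -0.41 ± 1.38 (SE) turned positive under all 3 other scalings.

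*Rab27a*, the cortical granule GTPase, had the second highest mean in P, but this rested on 1 library. It had 87.3, 46.3 and 1.61 FPKM in the NP libraries and 24.7, 15.6 and 570.3 in P, so P replicate 3 held 93.4% of the P total and the mean of the other two P libraries was 20.1 FPKM. NP replicate 3 was also far below the other NP libraries. The log2 ratio of 1.49 ± 1.33 (SE; limma, adjusted p = 0.544) turned to -0.10 without P replicate 3 and to -0.050 without NP replicate 3. Its paralog *Rab27b* was listed above 0 in NP replicate 3 alone, at 2.08 FPKM. Of the 39 members with a P mean above 1 FPKM, 9 (23.1%) had over 90% of the P total in 1 library, the same share as among all genes at that level (1847 of 8009, 23.1%).

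The early and recycling endosome genes had the highest sum of the Rab groups in every library but P replicate 3. Its 15 genes summed to 624, 696 and 534 FPKM in NP beside 447, 356 and 367 in P. Without a block for the replicate number, none of its 14 tested genes passed the threshold in limma (2 had an unadjusted p below 0.05, against 15.8% of all genes). Of the 14, 13 had a log2 ratio below 0, against 80.1% of all genes. *Rab35*, which acts in fast recycling and in the last step of cytokinesis, had 214, 162 and 190 FPKM in NP against 196, 85.4 and 208 in P. This was the Rab gene with the highest mean over all 6 libraries, though not in P, and the fractions overlapped, with a log2 ratio of -0.30 ± 0.73 (SE) that turned to 0.63 to 0.69 under the other scalings. *Rab11a*, the recycling endosome GTPase, had 64.8, 126 and 211 FPKM in the NP libraries and 124.5, 89.3 and 12.9 in P, with a ratio of -1.16 ± 0.94 (SE) that turned to 0.087 under quantile normalization. It was above its paralogs *Rab11b* and *Rab25* in every library, whose means were 4.04 and 2.30 FPKM in NP against 0.0814 and 0 in P. Reads of *Rab11b* may be shared with a nearly identical processed pseudogene. *Gm17251*, on the other strand over *Rab11b*, had means of 28.5 FPKM in NP and 0.316 in P.

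The 3 Rab5 genes, regulators of early endosome fusion, were listed at different levels, and differences between them were not tested. *Rab5c* had 138, 144 and 106 FPKM in NP beside 27.8, 63.5 and 113 in P, with a log2 ratio of -1.11 ± 0.84 (SE), and was above *Rab5a* and *Rab5b* in all 6 libraries. *Rab5b* had 22.2, 34.4 and 7.58 FPKM in NP against 0, 0.830 and 0 in P, which do not overlap, with a log2 ratio of -3.97 ± 1.22 (SE; limma, adjusted p = 0.128). With the replicate number as a block, limma called *Rab5b*. *Rab5a* had 1.37, 17.1 and 0 FPKM in the NP libraries and 5.18, 4.46 and 0 in P. The log2 ratio of *Rab5b* over *Rab5a* was 3.29, 0.96 and 3.10 in NP and -2.63, -1.58 and 0 in P. *Rab5b* was above *Rab5a* in all NP libraries, while in P replicate 3 both were at 0 and in P replicate 1 the 5.18 FPKM of *Rab5a* lay close to the 4.36 that 3 reads of *Rab5b* are worth, so only P replicate 2 shows the other order clearly. *Rab5b* also has a nearly identical processed pseudogene.

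Other genes of early and recycling endosomes spread widely between libraries. *Rab21*, which sorts integrins, had 48.3, 80.3 and 3.75 FPKM in NP beside 67.0, 80.3 and 17.7 in P, with a log2 ratio of 0.81 ± 1.11 (SE) that turned to -0.43 without NP replicate 3. *Rab4a*, of fast recycling, had 48.7, 58.4 and 0.704 FPKM in NP against 6.95, 0.499 and 4.78 in P, with a ratio of -2.06 ± 1.39 (SE). The predicted gene *Gm20388*, which lies over *Rab4a* on the same strand, had means of 34.8 and 6.10 FPKM, close to the 35.9 and 4.07 of *Rab4a*. *Rab22a*, *Rab14* and *Rab31* had means of 22.6, 7.68 and 7.04 FPKM in the NP libraries and 8.40, 6.82 and 4.70 in P. *Rab17* had 32.0, 6.21 and 0 FPKM in NP and was at 0 in all P libraries.

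**Figure D4:**
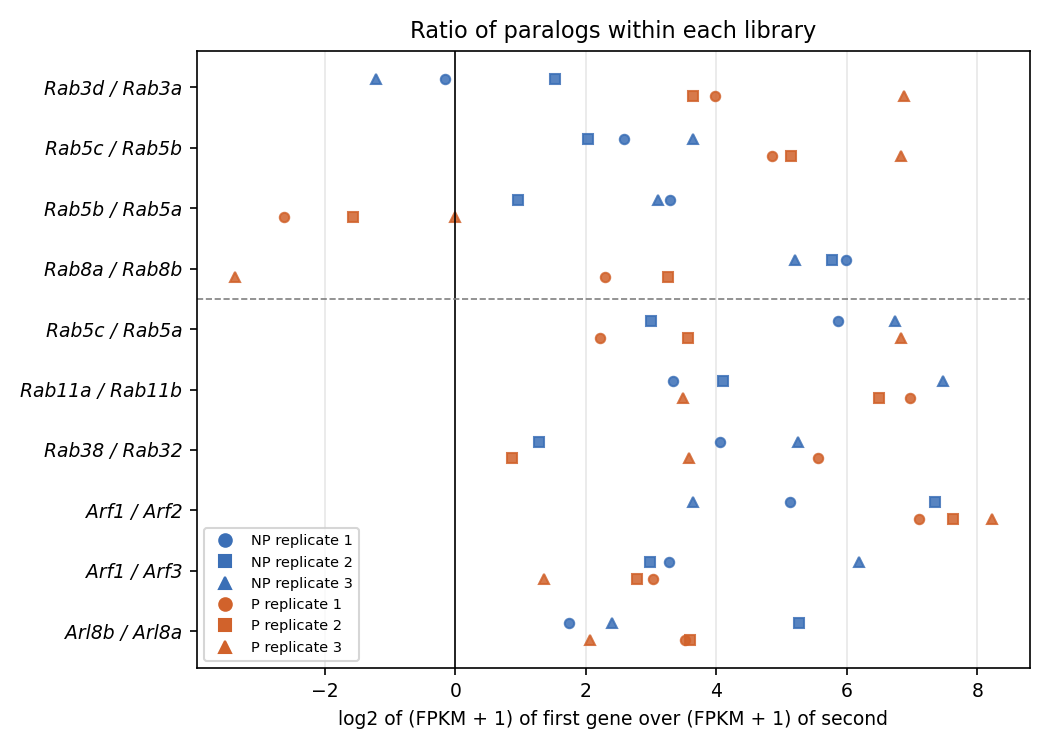
Log2 of the ratio of 2 paralogs (1 FPKM added to each) within each library, NP in blue and P in orange, with circles, squares and triangles for replicates 1, 2 and 3. Above the dashed line NP and P do not overlap, as for *Rab8a* over *Rab8b* (5.20 to 5.98 in NP, -3.38 to 3.26 in P); below it they overlap and the first gene is higher in all 6 libraries.

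Apart from the 1 FPKM added, ratios within a library do not change when it is multiplied by a constant, and 24 pairs of paralogs were compared in this way, without a test. In 4 pairs NP and P did not overlap, namely *Rab3d* over *Rab3a*, *Rab5c* over *Rab5b*, *Rab5b* over *Rab5a* and *Rab8a* over *Rab8b*. This is 16.7% of the pairs, near the 14.3% over all pairs of the 10578 genes tested, and *Rab5b* is in 2 of the 4, so the count is no result about these genes and the ratios are given as values only. In 8 pairs the same gene was higher in all 6 libraries.

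The late endosome and lysosome group was led by 3 genes in the mean over all 6 libraries. In P the mean of *Rab32* (7.48 FPKM) was above that of *Rab9* (5.30). *Rab7*, the master GTPase of late endosomes, had 91.0, 77.9 and 59.5 FPKM in NP beside 58.5, 51.7 and 16.6 in P, groups that just fail to overlap, with a log2 ratio of -1.0 ± 0.91 (SE), close to the -1.03 of all genes, that turned to 0.12 under quantile normalization. *Rab38*, of lysosome-related organelles, had 149.9, 185 and 43.0 FPKM in NP against 183, 36.3 and 11.0 in P, with a ratio of -1.30 ± 1.0 (SE), and was above its paralog *Rab32* in every library. *Rab9*, of transport from late endosomes to the Golgi, had 33.3, 24.2 and 47.7 FPKM in the NP libraries and 0, 15.5 and 0.369 in P, which do not overlap, with a ratio of -3.62 ± 1.26 (SE; limma, adjusted p = 0.174). It was called by limma when the replicate number was added as a block. *Rab7* and *Rab9* each have a nearly identical processed pseudogene. *Rab24*, *Rab36*, *Rab9b* and *Rab7l1* stayed below 1 FPKM on average in both fractions.

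*Rab1b*, which acts between endoplasmic reticulum and Golgi, had the highest mean of the genes grouped under that role. It had 86.3, 79.9 and 151 FPKM in NP beside 169.7, 23.9 and 143 in P, which overlap, with a log2 ratio of -0.27 ± 0.88 (SE) that turned to 0.63 to 0.71 under the other scalings. Its paralog *Rab1* was detected only in replicate 2 of each fraction, at 0.829 and 2.77 FPKM. *Rab6a*, of the Golgi, had 4.77, 14.7 and 3.89 FPKM in NP against 0, 8.93 and 2.42 in P, and shares its place with *Mrpl48* on the other strand, which had means of 147 and 40.8 FPKM. *Rab2b* had 6.99, 5.77 and 0.238 FPKM in NP and was at 0 in all P libraries. It shares its place with *Tox4* on the other strand, which had means of 22.9 FPKM in NP and 2.22 in P. *Rab2a* had 4.17, 16.9 and 0.232 FPKM in NP against 0, 2.05 and 0 in P. A processed pseudogene matches *Rab2a* over 637 bases at 96.4% identity. *Rab30*, a Golgi GTPase, had the highest log2 ratio of all members, 1.68 ± 1.19 (SE; limma, adjusted p = 0.468). It had 0.764, 0.470 and 0.0390 FPKM in the NP libraries and 0, 1.66 and 32.6 in P, so P replicate 3 held 95.2% of its P total and the groups overlapped.

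Of the Arf genes, which recruit coats and lipid-modifying enzymes, *Arf1* had the highest mean of all 82 members in both fractions and was the only one above 100 FPKM in all 6 libraries. It had 316, 447 and 787 FPKM in NP beside 137, 197 and 298 in P. *Rab35*, *Rab38* and *Rab1b* were above it in P replicate 1, and *Rab27a* in P replicate 3. Every P library was below every NP library, but the log2 ratio of -1.26 ± 0.66 (SE; limma, adjusted p = 0.354) was only -0.23 relative to the median of all genes. *Arf3*, of the same class, had 31.8, 55.9 and 9.84 FPKM in NP against 15.9, 27.6 and 115 in P, with a ratio of 0.49 ± 1.05 (SE) that turned to -0.31 without P replicate 3 and -0.17 without NP replicate 3. *Arf2*, the remaining class I gene, had 8.08, 1.73 and 62.3 FPKM in NP and was at 0 in all P libraries. Adding the replicate number as a block made *Arf2* a call in limma.

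*Arf6*, which acts at the plasma membrane and on cortical actin, had 30.8, 27.7 and 38.4 FPKM in the NP libraries and 16.4, 9.63 and 15.6 in P. Its groups did not overlap, and its log2 ratio of -1.18 ± 1.02 (SE; limma, adjusted p = 0.53) was close to the median of all genes. *Arf5*, of class II, had 6.52, 23.5 and 22.2 FPKM in NP beside 27.3, 7.07 and 18.5 in P, which overlap. Its class II partner *Arf4* had 0.550 FPKM in NP replicate 2, 0.311 in P replicate 2 and none elsewhere.

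The proteins that load, unload and read these GTPases were examined in 7 lists with 216 genes in the table, 170 of them tested. Of these 5 (2.94%) passed the threshold, all lower in P, against 1.82% of all genes. Their median log2 ratio was -0.95, beside -1.03 for all genes. The exchange factors for Rab gave 2 calls of 34 tested, the Rab effectors 2 of 34, and the effectors of Arf and Arl 1 of 36. No call was made among 30 Rab GAPs, 11 Arf GEFs, 20 Arf GAPs and 6 genes of Rab prenylation and delivery. The tested counts by list do not add up to the 170, which counts each gene once and leaves out members. In limma, 30 of the 170 (17.6%) had an unadjusted p below 0.05, against 15.8% of all genes, and 1 of these was higher in P.

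The called regulators and effectors are linked to members described above. *Mon1a*, a subunit of the Rab7 exchange factor, had 127, 254 and 650.3 FPKM in NP against 0, 17.3 and 4.03 in P, with a log2 ratio of -5.94 ± 1.11 (SE; limma, adjusted p = 0.0138). *Rilp*, a Rab7 effector that binds dynein, had 524, 53.1 and 15.2 FPKM in the NP libraries and 11.6, 0 and 0.408 in P (log2 ratio -4.89, limma adjusted p = 0.0853). *Rilpl1*, an effector of Rab8 and Rab10, had 42.4, 32.0 and 125 FPKM in NP beside 0, 6.63 and 0.287 in P (log2 ratio -4.72, limma adjusted p = 0.065). *Rab3il1*, an exchange factor linked to Rab3 and Rab8, had 336, 394 and 214 FPKM in NP against 30.9, 46.3 and 23.4 in P (log2 ratio -3.20, limma adjusted p = 0.0605). *Bbs9*, a BBSome subunit, had 225, 185 and 296 FPKM in the NP libraries and 20.5, 4.63 and 16.7 in P (log2 ratio -4.17, limma adjusted p = 0.036). In each of the 5 the NP and P libraries did not overlap. Every P library was below every NP library in 43 of the 170 tested regulators and effectors (25.3%), against 23.2% of all genes. The 5 were chosen on these same values, so their lack of overlap adds no support. Without any 1 of the NP libraries, limma called none of the regulators (18 to 30 had an unadjusted p below 0.05), and without P replicates 1, 2 and 3 it called 8, 5 and 8. In these fits the filter was redrawn on the libraries left. Over all genes, the highest count of calls with 1 library left out was lower when the filter of all 6 libraries was kept. None of the 5 was called under the 3 other scalings, without the filter or without the trend, with limma adjusted p of 0.102 to 0.651.

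The regulators with the highest mean over all 6 libraries were 2 subunits of the TRAPP complexes, exchange factors for Rab1 and Rab11, with *Arl6ip1*, *Cyth2* and *Spire1*, an order that was not the same within NP or within P. *Trappc2l* had 402, 647 and 1572 FPKM in NP beside 121, 123 and 2900 in P, so P replicate 3 held 92.3% of its P total. *Trappc4* had 205, 114 and 612 FPKM in NP against 57.6, 12.8 and 891 in P, with the same library highest. Without P replicate 3 both passed the threshold, with a log2 ratio of -2.60 for *Trappc2l* (limma, adjusted p = 0.0556, against -1.08 and 0.520 with it) and of -3.10 for *Trappc4* (limma, adjusted p = 0.0810, against -1.44 and 0.491). *Cyth2*, an exchange factor of the Arf proteins, had 581, 383 and 301 FPKM in the NP libraries and 250.1, 74.0 and 0.367 in P, groups that do not overlap (log2 ratio -3.78, limma adjusted p = 0.153). Its ratio was -5.33 without P replicate 1, where it passed (limma, adjusted p = 0.0131), and -1.57 without P replicate 3. These calls of *Trappc2l*, *Trappc4* and *Cyth2* came from fits with the filter redrawn on the libraries left. Their results with the filter of all 6 libraries kept are not given. *Spire1*, an actin nucleator that joins Rab11 vesicles, had 157, 280 and 752 FPKM in NP beside 149, 113 and 134 in P. *Arl6ip1*, a shaper of endoplasmic reticulum tubules first found as an Arl6 partner, had 222, 250.04 and 683 FPKM in NP against 558, 284 and 144 in P, which overlap.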

How the data were processed

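RNA of pooled NP and P gradient fractions of AF oocytes (3 libraries each) was depleted of rRNA, amplified and sequenced. Per the submitters' notes and the study's methods, the authors used FastQC 0.11.5 and Trim Galore 0.4.1 on the reads and HISAT2 2.0.5 for alignment to GRCm38, and the deposited FPKM values come from Seqmonk 1.40.0. No source used here gives the annotation release, whether strand was used, or how reads were filtered. The deposited mean of each fraction was not used.

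The table has 25965 rows; 66 rows of duplicated symbols were dropped, keeping the row with the highest mean. Depth was estimated from the steps between low values with GENCODE M21 exon lengths. P was compared with NP with limma 3.58.1 (R 4.3.3) on log2(FPKM + 1), two-sided and with the spread following the level, Benjamini-Hochberg over 10578 genes with a mean above 1 in NP or P, at a threshold of 0.1. An exact permutation test of 3 against 3 cannot go below 0.1. On simulated data with genes changed by 2 (log2), limma called 200 of 200 at a noise SD of 0.3 and 7 of 200 at 1.22, the median SD of these libraries, with 26 and 1 unchanged genes called beside them, so most changes of that size would be missed. Ratios are given for the 20 members with the highest mean, those past the threshold, and the 5 highest and 5 lowest ratios; other members are named by level, and regulators are named if past the threshold or among the 5 highest. Copies were searched with BLAST 2.17.0 (at least 95% over 200 bases), in Python 3.11.15. Members, lists and roles were chosen with earlier results of these data known. The alternatives changed the pseudocount, the filter, the scaling, the trend or the threshold (0.05), added the replicate number as a block, or left out 1 library.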

Additional observations from a re-analysis of the deposited data

How the results depend on the processing

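The counts of calls depended on the processing. In place of 192 genes, 3 members and 5 regulators or effectors, limma called 69, 1 and 3 with a pseudocount of 0.1, 1, 0 and 0 without a filter, 3, 0 and 0 with median-of-ratios scaling, 4, 0 and 0 with quantile normalization, 6, 0 and 0 with a common FPKM sum, 15, 1 and 0 without the trend, and 65, 2 and 2 at an adjusted p of 0.05. Where no member was called in these settings, 6 to 8 had an unadjusted p below 0.05 in limma, and 7 to 15 where this followed from leaving out a library. Leaving out 1 library gave 0 to 331 genes (0 to 55 with the filter of all 6 libraries kept), 0 to 4 members and 0 to 8 regulators. The difference between the medians of members and all genes, -0.083, moved to 0.39 with a pseudocount of 0.1 and to -0.35 without a filter, and ran from -0.044 to 0.21 with 1 library left out. The cause was not tested.

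Every gradient was divided into NP and P pools, but no source used here says that libraries of one number come from one sample. Deviations from the group means correlated at 0.0634, 0.0991 and 0.1158 for pairs of one number and at -0.0886 to 0.0208 for others, so that every library correlated best with its own number. With the replicate number as a block, limma called 668 genes, 7 members (*Arf2*, *Rab5b*, *Rab8a* and *Rab9* in addition) and 13 regulators or effectors.

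Of 505 ratios of 34 named genes under the alternatives, 395 kept sign and side of the threshold, 70 lost and 8 gained a call, and 32 changed sign, none of them of a gene past the threshold. Under median-of-ratios scaling, quantile normalization and a common FPKM sum, in that order, the ratio was 0.69, 0.65 and 0.63 for *Rab35*, 0.71, 0.63 and 0.65 for *Rab1b*, 0.62, 0.60 and 0.56 for *Rab3d*, 0.44, 0.92 and 0.30 for *Rab10* and 0.75, 0.79 and 0.69 for *Arl6ip1*. Quantile normalization gave 0.087 for *Rab11a* and 0.12 for *Rab7*, and a pseudocount of 5 gave 0.058 for *Rab10*. With 1 library left out, ratios ran from -1.81 to 1.20 for *Rab10*, -0.77 to 0.62 for *Rab1b*, -0.53 to 0.11 for *Rab35*, -1.0 to 0.19 for *Rab3d*, -0.43 to 1.62 for *Rab21*, -0.10 to 2.49 for *Rab27a*, -0.31 to 1.08 for *Arf3* and -0.73 to 0.27 for *Arl6ip1*. Without a change of sign they ran from -2.34 to -0.37 for *Rab38*, -1.77 to -0.18 for *Rab11a*, -3.73 to -1.17 for *Rab4a* and -4.44 to -1.74 for *Rab3b*. At the depth of P replicate 1, members below about 9.16 FPKM could be missed there.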
